A study of Mus musculus with 32 samples.

Results

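The Hox cluster genes are the homeobox genes of the Hoxa, Hoxb, Hoxc and Hoxd clusters, and they were taken here as every row of the merged count table whose symbol is Hox followed by a cluster letter from a to d and a paralogue number. The 38 genes described here stand among the 54429 gene symbols of the table, and 10 of them belong to Hoxa, 10 to Hoxb, 9 to Hoxc and 9 to Hoxd. They were measured by bulk RNA-seq in Veravec cells, a line of mouse lung endothelial cells (ECs), transfected in 2 rounds with a control siRNA (si-control) or with siRNA against Dnmt1 (si-dnmt). ECs of each siRNA then received no cytokine, TNF (TNFα at 10 ng/mL), IFN (IFNγ at 1000 U/mL) or TNF + IFN, where the 16 h of exposure are stated for the single cytokines. The 8 groups were therefore si-control, si-control + TNF, si-control + IFN, si-control + TNF + IFN, si-dnmt, si-dnmt + TNF, si-dnmt + IFN and si-dnmt + TNF + IFN, with 4 libraries called biological replicates in each. All of them come from a single cell line, and what separates 1 replicate from another is not stated, so that p-values measure the spread between these samples.

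Hox genes encode homeodomain transcription factors that give cells their position along the body axis. In each cluster the genes lie in the order of their paralogue number, and genes at the 3' end (low numbers) are used earlier and further forward in the embryo than genes at the 5' end (high numbers). Adult cells, ECs among them, keep part of this code, which Polycomb proteins hold silent and Trithorax proteins hold active, while TALE homeodomain proteins (PBX, MEIS) bind DNA together with HOX proteins. DNMT1 is the enzyme that copies CG methylation onto new DNA strands, and methylation itself was not measured here.

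RefSeq promoter windows (build GRCm38.p6, 250 bases before to 50 bases after a start site) were on hand for 22 of the 38 genes, as 24 windows. The windows below belong to the abundant genes that were lower in si-dnmt ECs (Hoxd8, Hoxd9, Hoxd10 and Hoxb8) and to silent genes for contrast (Hoxd12 and Hoxc4). Capitals mark CG dinucleotides, and each window is written 5' to 3' on its gene's strand, which is the plus strand in all of these.
Hoxd8 (chr2:74704365-74704664): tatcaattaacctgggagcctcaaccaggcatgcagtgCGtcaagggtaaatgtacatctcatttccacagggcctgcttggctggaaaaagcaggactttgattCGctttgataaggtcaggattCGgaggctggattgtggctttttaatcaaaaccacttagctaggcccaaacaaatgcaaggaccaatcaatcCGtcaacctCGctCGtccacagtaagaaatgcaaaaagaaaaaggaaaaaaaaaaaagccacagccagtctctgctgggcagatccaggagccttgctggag
Hoxd9 (chr2:74697513-74697812): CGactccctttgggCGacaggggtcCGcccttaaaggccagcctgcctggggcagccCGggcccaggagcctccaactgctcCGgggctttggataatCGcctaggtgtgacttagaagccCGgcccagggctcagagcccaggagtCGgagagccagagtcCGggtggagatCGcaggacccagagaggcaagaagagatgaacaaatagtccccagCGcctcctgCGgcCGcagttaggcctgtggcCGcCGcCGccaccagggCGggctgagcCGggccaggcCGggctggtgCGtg
Hoxd10 (chr2:74691641-74691940): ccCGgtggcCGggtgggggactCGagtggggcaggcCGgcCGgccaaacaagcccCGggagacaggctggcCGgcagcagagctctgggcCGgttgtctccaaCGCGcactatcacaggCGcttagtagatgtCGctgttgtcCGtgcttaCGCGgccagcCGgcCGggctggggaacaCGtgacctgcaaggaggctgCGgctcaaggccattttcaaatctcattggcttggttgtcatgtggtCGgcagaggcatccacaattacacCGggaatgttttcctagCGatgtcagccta
Hoxb8 (chr11:96281655-96281954): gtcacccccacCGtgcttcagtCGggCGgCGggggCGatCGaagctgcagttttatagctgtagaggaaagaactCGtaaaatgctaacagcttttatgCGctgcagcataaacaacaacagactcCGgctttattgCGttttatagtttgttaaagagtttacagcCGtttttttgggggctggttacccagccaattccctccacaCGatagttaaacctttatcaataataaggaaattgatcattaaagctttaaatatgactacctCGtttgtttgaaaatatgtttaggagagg
Hoxd12 (chr2:74674763-74675062): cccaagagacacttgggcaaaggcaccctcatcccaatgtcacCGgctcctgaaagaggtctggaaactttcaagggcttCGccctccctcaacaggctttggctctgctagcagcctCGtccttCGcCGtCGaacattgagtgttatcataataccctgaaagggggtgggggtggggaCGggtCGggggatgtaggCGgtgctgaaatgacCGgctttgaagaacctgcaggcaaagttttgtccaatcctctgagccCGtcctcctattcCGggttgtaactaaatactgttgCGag
Hoxc4 (chr15:103034145-103034444): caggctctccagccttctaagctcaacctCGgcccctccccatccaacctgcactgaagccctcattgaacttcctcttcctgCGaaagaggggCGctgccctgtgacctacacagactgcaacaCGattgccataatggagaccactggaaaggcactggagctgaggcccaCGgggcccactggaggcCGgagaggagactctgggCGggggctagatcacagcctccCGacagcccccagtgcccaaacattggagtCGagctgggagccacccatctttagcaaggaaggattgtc
Hoxd8 held 6 CG dinucleotides, Hoxd9 20, Hoxd10 22, Hoxb8 13, Hoxd12 13 and Hoxc4 9, beside a median of 7 over all 32841 windows of this length. The windows of the neighbours Hoxd8, Hoxd9 and Hoxd10 thus differed in CG content, and a link to their RNA levels was not tested. CG counts ran from 4 to 29 (median 20) in the windows of 12 expressed Hox genes and from 4 to 45 (median 12.5) in those of 10 silent ones, so the ranges overlapped. The motif TGATNNAT, in which HOX and PBX proteins are known to bind side by side, was searched on both strands and was present in 4 of the 24 windows (Hoxa2, Hoxb1, Hoxb8 and 1 of the 2 windows of Hoxd11) and in 8.85% of all windows. The motif TTCNNNGAA, to which STAT factors are known to bind, was present only in the Hoxd4 window among the 24 and in 8.30% of all windows; it reads the same on both strands. A match of letters describes the window and does not show that a factor binds there.

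Which Hox genes did these ECs use at all? A gene was called expressed where its mean reached at least 1 CPM (a gene's counts relative to the total of its library, scaled with TMM factors and written in CPM throughout) in any of the 8 groups, and silent otherwise. By this rule 19 of the 38 genes were expressed and 19 were silent. Expressed genes lay in 3 clusters, namely Hoxa3 to Hoxa7, Hoxb2 to Hoxb9, and Hoxd1, Hoxd3, Hoxd4, Hoxd8, Hoxd9 and Hoxd10. The Hoxc cluster was silent from end to end, with 8 counts over its 9 genes in all 32 libraries (6 for Hoxc6 and 1 each for Hoxc11 and Hoxc13). The 5' genes of the other clusters were silent as well: Hoxa10, Hoxa11 and Hoxa13 had 7, 2 and 5 counts over the 32 libraries, Hoxb13 had 4, and Hoxd11 and Hoxd13 had 4 and 10.

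By the highest of the 8 group means, Hoxd8 (177 CPM), Hoxd9 (130 CPM) and Hoxb8 (64.0 CPM) led, and all Hoxc genes lay below 0.03 CPM. A total of 8 genes had no count in any library (Hoxb1, Hoxc4, Hoxc5, Hoxc8, Hoxc9, Hoxc10, Hoxc12 and Hoxd12), which at these depths allows up to 0.0896 to 0.173 CPM in a library, counting error alone. Close to the threshold, Hoxd1 passed only through si-dnmt + TNF + IFN (1.04 ± 0.282 CPM, SD, n = 4) and Hoxa4 only through si-dnmt + TNF (1.26 ± 0.186 CPM). Hoxd4 passed in 4 groups with a highest mean of 1.24 ± 0.518 CPM in si-control. Just below the threshold stood Hoxa2, at most 0.556 ± 0.131 CPM in si-dnmt, and Hoxa9, at most 0.285 ± 0.0399 CPM in si-dnmt + TNF. A total of 13 genes were at or above 1 CPM in all 8 groups.

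Levels can be set against each other between genes only per length, for which exon lengths of the GENCODE M21 annotation were used. In si-control ECs, Hoxd8 (64.5 ± 2.89 CPM per kb) and Hoxd9 (61.0 ± 3.11) led and differed by about their spread. Hoxb7 (20.9 ± 1.29), Hoxd10 (18.9 ± 3.84), Hoxb8 (15.5 ± 2.66) and Hoxb6 (14.3 ± 2.02) followed, and each of these lay within the spread of its neighbour in that order. Hoxa7 (7.59 ± 0.662) was the highest Hoxa gene and lay apart from both the group above and from Hoxb4 (3.59 ± 1.05) below it. At the low end of the expressed genes were Hoxa4 (0.384 ± 0.0972), Hoxa3 (0.338 ± 0.0746) and Hoxd1 (0.0502 ± 0.0191). Hoxd4 has no such value, since its symbol joins a pair of identifiers of which 1 carries 626 of its 653 counts and has no length in that annotation. Large parts of the exons of Hoxd3 (62.3%) overlap Hoxd4 or another gene on the same strand, and 52.9% of those of Hoxb3, 27.3% of Hoxb2, 25.4% of Hoxa3 and 20.4% of Hoxa7 overlap antisense genes. Whether counting used strand is not stated, so the values of these 5 genes and of Hoxd4 are less certain.

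The libraries held 17362546 to 33500030 counts (median 20859668). Dnmt1, the targeted gene, lay at 86.4 to 211 CPM in the 16 si-control libraries and at 5.10 to 17.3 CPM in the 16 si-dnmt libraries, with log2 fold changes of -3.76 to -4.08 in the 4 states (edgeR adjusted p = 2.7e-08 to 4.8e-08). All 14 endothelial markers were at 1 CPM or more in every group. Of the markers of other cells, 2 of 9 epithelial, 4 to 6 of 8 fibroblast, 1 to 3 of 7 mural and 2 or 3 of 8 leukocyte genes reached 1 CPM, depending on the group. The summed mural markers (mostly Acta2) moved with the siRNA, from 8.0 to 70.5 CPM over the si-control libraries to 40.3 to 232 CPM over the si-dnmt libraries, and their part in the results below was not tested. For several members replicates 1 and 2 stood apart from replicates 3 and 4. For Hoxb9, replicates 3 and 4 were both above replicates 1 and 2 in 8 of 8 groups, for Hoxb4 both below in 8 of 8, and for Hoxb5, Hoxb6, Hoxb7 and Hoxd3 both below in 7 of 8. Since same-numbered libraries deviated together, values from a fit with the replicate number as a block are given where they change a call. Deviations correlated best with the own number in 70 of 112 pairs of libraries from different groups. In the remaining pairs a library of another number correlated better. Deviation by number and by replicate set (1 and 2 against 3 and 4) is thus not told apart. The labels state no pairing by number, so the block is an alternative fit and not an established design. With the block more genes were called over the whole table too, namely 32.4%, 33.4%, 34.5% and 30.8% of all genes for the siRNA without cytokine, with TNF, IFN and TNF + IFN and 59.1% in the mean of these states, beside 9, 9, 11, 8 and 17 of the 20 tested Hox genes.

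Do ECs with less Dnmt1 RNA change their Hox code, and in which direction in each cluster? The neighbours Hoxd8, Hoxd9 and Hoxd10 and, in Hoxb, Hoxb3 and Hoxb8 were called lower in all 4 states. The calls of these Hoxd genes held when any single library was left out. Each call of Hoxb8 and that of Hoxb3 with TNF did not. Hoxb6 was called lower in 3 states, with no overlap of libraries in any of the 4. Hoxd8, the most abundant Hox RNA, fell from 177 ± 7.94 to 82.9 ± 16.5 CPM (SD, n = 4) without cytokine. None of the 6 tested Hoxa genes was called lower in any state, beside 8.72% to 9.59% of all tested genes called lower in a state. For 6 genes this is close to the share of all genes.

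A total of 20 of the 38 genes passed the filter on low counts and were tested, namely the 19 expressed genes and Hoxa2. Hoxd1 passed it only through si-dnmt + TNF + IFN and 1 library of si-dnmt + TNF, and Hoxa2 through 6 libraries of which 3 were si-dnmt, so a difference of these genes is partly fixed by the filter. Without cytokine, 7 of the 20 tested genes were called, all lower in si-dnmt, beside 18.5% of all 15250 tested genes (9.57% higher and 8.89% lower). With TNF 6 were called (1 higher and 5 lower), beside 20% of all genes (10.4% and 9.59%). In IFN the count was 8, all lower, beside 20.3% (10.8% and 9.54%). Under TNF + IFN it was 7 (1 higher and 6 lower), beside 17.7% (8.97% and 8.72%). Libraries of the siRNA groups did not overlap for 7 of the 20 genes without cytokine (21.2% of all genes), 5 with TNF (22.7%), 8 with IFN (22%) and 6 with TNF + IFN (21.9%). The median log2 fold change over the 20 tested genes was -0.20, -0.17, -0.41 and -0.24 in the 4 states, beside -0.0067 to 0.0040 over all genes.

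By cluster, the tested Hoxa genes were above zero in 6 of 6 without cytokine, 5 of 6 with TNF, 3 of 6 with IFN and 5 of 6 with TNF + IFN, but in a single state only Hoxa5 was called, with TNF. The 8 tested Hoxb genes were below zero in 7 of 8 in each state, with Hoxb4 the exception, and 2 to 5 of them were called lower. Of the 6 tested Hoxd genes, 3 or 4 were called lower or, for Hoxd1 under TNF + IFN, higher in each state. Being called lower in all 4 states was the case for 5 of the 20 genes and for 3.59% of all tested genes, and being called higher in all 4 for 0 of the 20 and 3.91%. Each state has its own si-control and si-dnmt libraries, so these 4 contrasts share none. The contrasts still cannot be taken as independent, since same-numbered libraries of different groups deviated together in 112 of 112 pairs. All groups also come from the same cell line and entered the same fit. Being called alike in all 4 states is therefore not counted as agreement among independent tests.

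**Figure D1:**
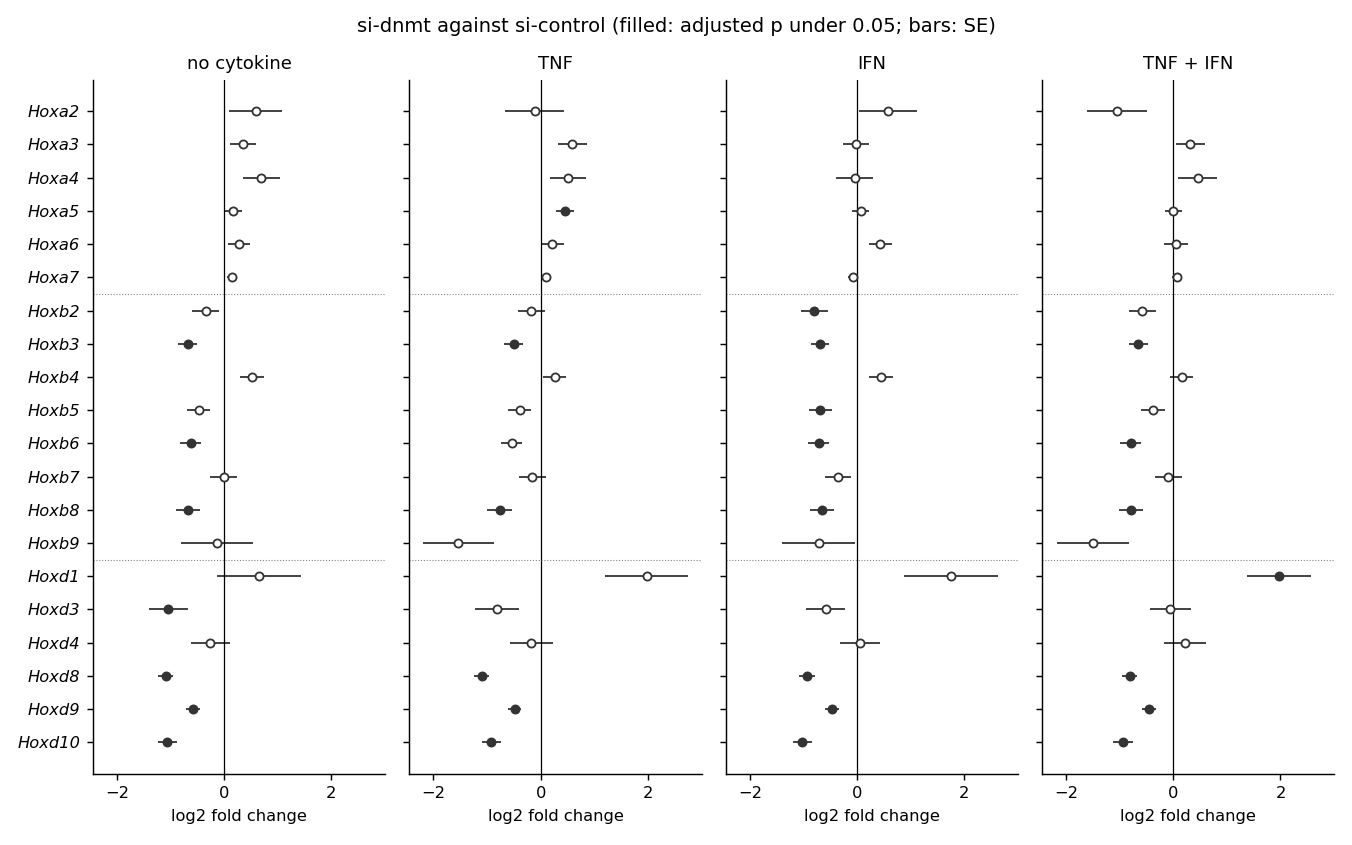
Points give the log2 fold change of si-dnmt against si-control (horizontal axis) of each of the 20 tested Hox genes (vertical axis, in order along Hoxa, Hoxb and Hoxd, separated by dotted lines) in 4 panels for the cytokine states, with SE bars and filled points where the edgeR adjusted p was under 0.05. Hoxb3, Hoxb8, Hoxd8, Hoxd9 and Hoxd10 lie to the left of zero with filled points in every panel.

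**Figure D2:**
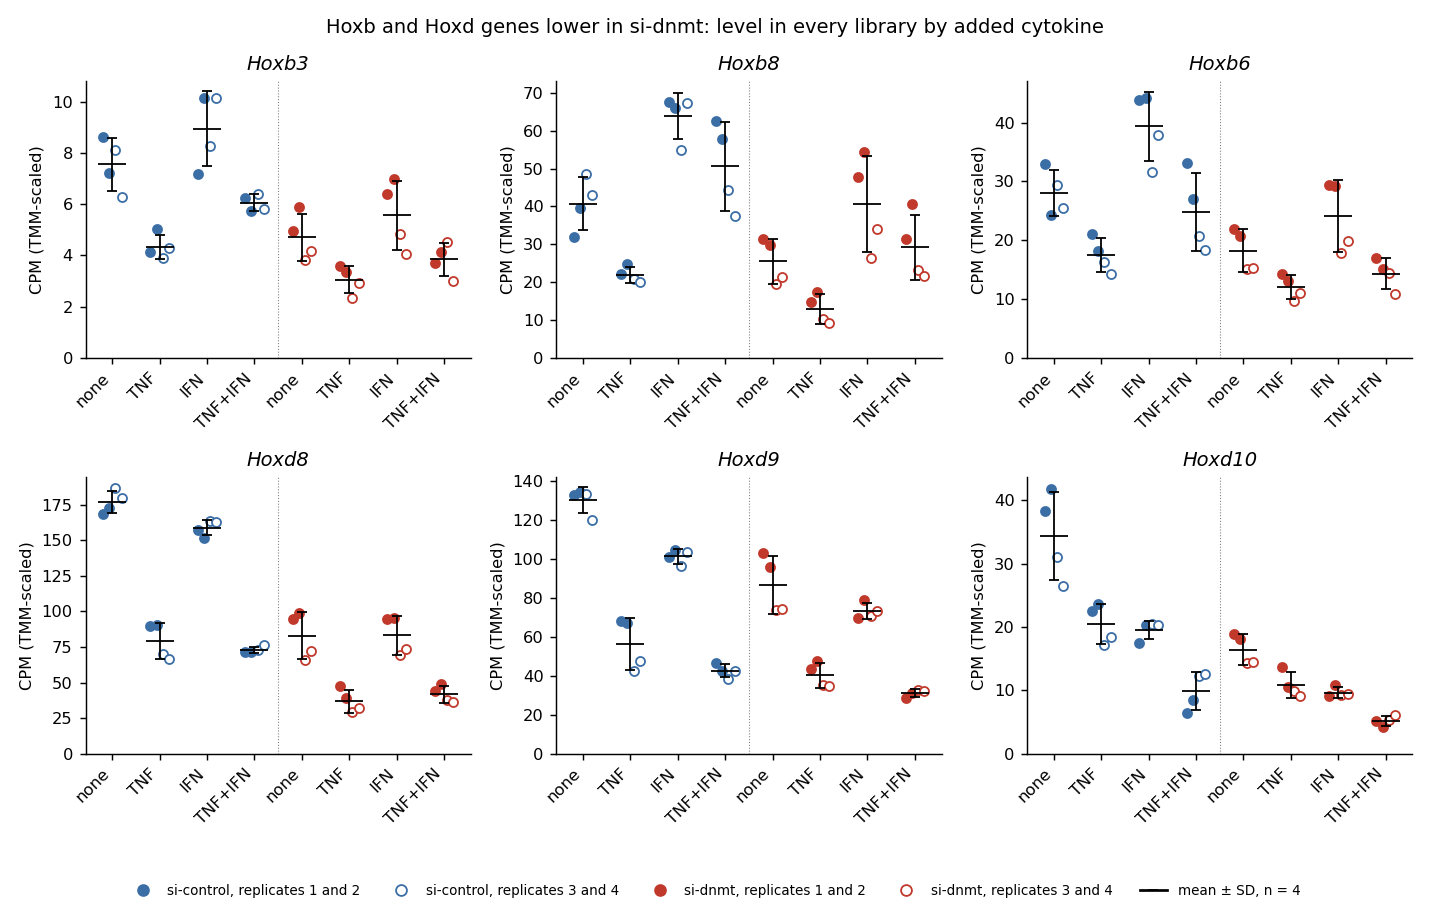
Each panel shows 1 Hox gene, with TMM-scaled CPM (vertical axis) in every library by added cytokine (horizontal axis), blue for si-control and red for si-dnmt, filled points for replicates 1 and 2, open points for replicates 3 and 4, and black bars for the mean ± SD of 4. All 6 genes have lower means in the red groups, of which that of Hoxb6 with TNF was not called, and in si-dnmt Hoxd8 replicates 1 and 2 lie above replicates 3 and 4 in each state.

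Among the Hoxa genes, Hoxa5, which is needed for lung development, was with TNF at 2.58 ± 0.545 CPM with the control siRNA and 3.53 ± 0.484 CPM with the Dnmt1 siRNA, a log2 fold change of 0.46 ± 0.16 (edgeR adjusted p = 0.0465) with overlapping libraries. Hoxa5 lost this call without replicate 1, 3 or 4 of si-control + TNF or replicate 1, 2 or 4 of si-dnmt + TNF (log2 fold change 0.33 to 0.47). Hoxa3, known from wound repair, had without cytokine 2.03 ± 0.448 CPM with the control siRNA and 2.59 ± 0.488 CPM with the Dnmt1 siRNA. In the mean over the 4 states Hoxa3 was called at 0.31 ± 0.13 (edgeR adjusted p = 0.0471), but 17 of the 32 fits that left out 1 library lost the call, namely those without replicate 1 or 4 of si-control or replicate 1, 3 or 4 of si-control + TNF or replicate 2 or 3 of si-control + IFN or replicate 1 or 2 of si-control + TNF + IFN or replicate 1 or 2 of si-dnmt or replicate 2 or 4 of si-dnmt + TNF or replicate 1 or 4 of si-dnmt + IFN or replicate 2 or 4 of si-dnmt + TNF + IFN (log2 fold change 0.26 to 0.31). Without cytokine Hoxa4 had 0.612 ± 0.155 against 0.988 ± 0.321 CPM, Hoxa6 2.10 ± 0.442 against 2.54 ± 0.281 CPM and Hoxa7 21.8 ± 1.90 against 24.0 ± 1.62 CPM. None of these 3 was called in a single state. In the mean over the states Hoxa4 was 0.40 ± 0.17 (edgeR adjusted p = 0.0574), Hoxa5 0.17 ± 0.08 (edgeR adjusted p = 0.0763) and Hoxa6 0.24 ± 0.11 (edgeR adjusted p = 0.0621). With the replicate block these became calls: Hoxa4 0.39 with the block (adjusted p = 0.0396), Hoxa5 0.18 with the block (adjusted p = 0.0234) and Hoxa6 0.25 with the block (adjusted p = 0.0489). Without the block, Hoxa4 was also called without replicate 3 of si-control + TNF or replicate 4 of si-control + TNF + IFN or replicate 1 of si-dnmt or replicate 1 of si-dnmt + IFN or replicate 1 or 2 of si-dnmt + TNF + IFN (log2 fold change 0.43 to 0.50). The mean of Hoxa5 was called without replicate 2 of si-control or replicate 2 of si-control + TNF or replicate 3 of si-dnmt + TNF (log2 fold change 0.20 to 0.21). That of Hoxa6 was called without replicate 4 of si-control or replicate 4 of si-control + TNF or replicate 1 or 4 of si-control + IFN or replicate 2 of si-dnmt + IFN or replicate 4 of si-dnmt + TNF + IFN (log2 fold change 0.27 to 0.30).

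The 3' side of the Hoxb run held Hoxb2 to Hoxb5. Hoxb3 is a paralogue of genes with known roles in EC migration, and it was lower in si-dnmt in each state. Without cytokine, Hoxb3 stood at 8.63, 7.20, 8.12 and 6.27 CPM with the control siRNA and at 4.94, 5.90, 3.82 and 4.17 CPM with the Dnmt1 siRNA (replicates 1 to 4). With TNF, Hoxb3 stood at 4.12, 5.01, 3.89 and 4.27 CPM with the control siRNA and at 3.57, 3.33, 2.35 and 2.93 CPM with the Dnmt1 siRNA. Groups did not overlap in either state. With IFN, Hoxb3 stood at 7.17, 10.1, 8.28 and 10.1 CPM with the control siRNA and at 6.39, 6.97, 4.83 and 4.04 CPM with the Dnmt1 siRNA. Under both cytokines, Hoxb3 stood at 6.24, 5.72, 6.404 and 5.82 CPM with the control siRNA and at 3.69, 4.14, 4.51 and 3.01 CPM with the Dnmt1 siRNA. Every si-dnmt library again lay below every si-control library of its state. Hoxb3 log2 fold changes were -0.69 ± 0.17 (edgeR adjusted p = 0.00558), -0.50 ± 0.18 (edgeR adjusted p = 0.0464), -0.69 ± 0.17 (edgeR adjusted p = 0.00506) and -0.66 ± 0.18 (edgeR adjusted p = 0.00996) in the order without cytokine, TNF, IFN and TNF + IFN. With TNF, its call was lost without replicate 1, 2 or 4 of si-control + TNF or replicate 2, 3 or 4 of si-dnmt + TNF (log2 fold change -0.55 to -0.40).

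Around it, Hoxb2 was lower with IFN, at 3.65 ± 0.628 CPM with the control siRNA and 2.10 ± 0.538 CPM with the Dnmt1 siRNA, a log2 fold change of -0.80 ± 0.25 (edgeR adjusted p = 0.0230). Hoxb2 lost that call without replicate 1 or 4 of si-control + IFN or replicate 3 or 4 of si-dnmt + IFN (log2 fold change -0.74 to -0.71). Hoxb4, known for expanding blood stem cells, went the other way from its neighbours, with 9.21 ± 2.70 against 13.1 ± 2.38 CPM without cytokine and 11.7 ± 1.83 against 16.0 ± 1.06 CPM with IFN. It was not called in a single state (adjusted p = 0.107 without cytokine and 0.153 with IFN) but was called in the mean of the states at 0.35 ± 0.11 (edgeR adjusted p = 0.0102). Hoxb4 was 0.53 with the block (adjusted p = 3.8e-04) without cytokine and 0.47 with the block (adjusted p = 0.00119) in IFN. Under TNF + IFN, Hoxb2 was -0.58 ± 0.25 (edgeR adjusted p = 0.116) and became a call without replicate 3 of si-dnmt + TNF + IFN (log2 fold change -0.81). In the mean of the states Hoxb2 was -0.47 ± 0.13 (edgeR adjusted p = 0.00267).

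Hoxb5, a regulator of the VEGF receptor gene Kdr, was called lower in si-dnmt in 1 of the 4 states, that with IFN. Without cytokine, Hoxb5 stood at 8.16, 8.05, 7.77 and 6.72 CPM with the control siRNA and at 6.98, 5.77, 4.94 and 4.44 CPM with the Dnmt1 siRNA. With TNF, Hoxb5 stood at 5.41, 5.15, 3.98 and 4.69 CPM with the control siRNA and at 3.52, 3.56, 4.10 and 3.44 CPM with the Dnmt1 siRNA. The groups overlapped in both states. With IFN, Hoxb5 stood at 10.1, 10.6, 7.09 and 7.88 CPM with the control siRNA and at 7.05, 7.14, 3.17 and 4.76 CPM with the Dnmt1 siRNA. Under both cytokines, Hoxb5 stood at 8.60, 6.92, 4.86 and 4.76 CPM with the control siRNA and at 4.86, 6.35, 4.28 and 3.95 CPM with the Dnmt1 siRNA. Here too the groups overlapped, with IFN only by si-dnmt + IFN replicate 2 and si-control + IFN replicate 3. Hoxb5 log2 fold changes were -0.47 ± 0.21 (edgeR adjusted p = 0.130), -0.39 ± 0.22 (edgeR adjusted p = 0.231), -0.69 ± 0.22 (edgeR adjusted p = 0.0227) and -0.38 ± 0.22 (edgeR adjusted p = 0.262). The call with IFN was lost without replicate 1 or 2 of si-control + IFN or replicate 3 or 4 of si-dnmt + IFN (log2 fold change -0.62 to -0.50). Without cytokine Hoxb5 was -0.49 with the block (adjusted p = 0.0128). In the mean of the states it was called at -0.48 ± 0.11 (edgeR adjusted p = 5.5e-04).

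The 5' side of the run was Hoxb6 to Hoxb9. Hoxb6, Hoxb7 and Hoxb8 were the most abundant Hoxb RNAs, while Hoxb9 was low (0.577 ± 0.444 CPM per kb in si-control). Without cytokine, Hoxb6 stood at 33.0, 24.3, 29.5 and 25.5 CPM with the control siRNA and at 22.0, 20.7, 15.1 and 15.2 CPM with the Dnmt1 siRNA. With TNF, Hoxb6 stood at 21.1, 18.1, 16.3 and 14.3 CPM with the control siRNA and at 14.2, 13.1, 9.59 and 11.05 CPM with the Dnmt1 siRNA. Its groups did not overlap in these states, and si-dnmt was the lower one. With IFN, Hoxb6 stood at 43.9, 44.1, 31.6 and 37.8 CPM with the control siRNA and at 29.4, 29.2, 17.7 and 19.8 CPM with the Dnmt1 siRNA. Under both cytokines, Hoxb6 stood at 33.1, 27.1, 20.7 and 18.3 CPM with the control siRNA and at 17.03, 15.1, 14.4 and 10.8 CPM with the Dnmt1 siRNA. Again no library crossed. Hoxb6 log2 fold changes were -0.62 ± 0.19 (edgeR adjusted p = 0.0235), -0.54 ± 0.20 (edgeR adjusted p = 0.0508), -0.71 ± 0.19 (edgeR adjusted p = 0.00894) and -0.79 ± 0.20 (edgeR adjusted p = 0.00504), of which that with TNF missed the threshold. With the block the TNF value was -0.54 (adjusted p = 4.7e-04), and it was also called without replicate 4 of si-control + TNF or replicate 1 of si-dnmt + TNF (log2 fold change -0.63). In the state without cytokine, the call of Hoxb6 was lost without replicate 1 or 3 of si-control or replicate 3 or 4 of si-dnmt (log2 fold change -0.60 to -0.54).

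Hoxb8, whose forced expression holds blood progenitors in an immature state, showed the same direction. Without cytokine, Hoxb8 stood at 31.8, 39.6, 48.6 and 43.1 CPM with the control siRNA and at 31.3, 29.7, 19.4 and 21.4 CPM with the Dnmt1 siRNA. With TNF, Hoxb8 stood at 22.2, 24.7, 20.7 and 20.1 CPM with the control siRNA and at 14.8, 17.4, 10.1 and 9.25 CPM with the Dnmt1 siRNA. Without cytokine the closest libraries were si-control replicate 1 and si-dnmt replicate 1, and with TNF the groups lay clear of each other. With IFN, Hoxb8 stood at 67.7, 66.1, 54.9 and 67.4 CPM with the control siRNA and at 47.7, 54.3, 26.5 and 34.0 CPM with the Dnmt1 siRNA. Under both cytokines, Hoxb8 stood at 62.6, 58.0, 44.3 and 37.5 CPM with the control siRNA and at 31.4, 40.5, 23.2 and 21.6 CPM with the Dnmt1 siRNA. In IFN the highest si-dnmt library came just under the lowest si-control library, and under TNF + IFN the groups overlapped. Hoxb8 log2 fold changes were -0.68 ± 0.23 (edgeR adjusted p = 0.0346), -0.77 ± 0.23 (edgeR adjusted p = 0.0187), -0.66 ± 0.22 (edgeR adjusted p = 0.0372) and -0.80 ± 0.23 (edgeR adjusted p = 0.0142). Each of these 4 calls rested on single libraries. Without cytokine it was lost without replicate 2, 3 or 4 of si-control or replicate 3 or 4 of si-dnmt (log2 fold change -0.69 to -0.57). In TNF it was lost without replicate 2 of si-control + TNF or replicate 3 or 4 of si-dnmt + TNF (log2 fold change -0.70 to -0.64). In IFN it was lost without replicate 1, 2 or 4 of si-control + IFN or replicate 3 or 4 of si-dnmt + IFN (log2 fold change -0.64 to -0.50). Under TNF + IFN it was lost without replicate 1 of si-control + TNF + IFN or replicate 3 or 4 of si-dnmt + TNF + IFN (log2 fold change -0.70 to -0.68). Between these genes lies Hoxb7, without cytokine at 32.2 ± 1.99 CPM with the control siRNA and 31.9 ± 6.90 CPM with the Dnmt1 siRNA, which was not called in any state. Its log2 fold change with IFN was -0.36 ± 0.25 (adjusted p = 0.336) and -0.36 with the block (adjusted p = 0.00724), and in the mean of the states -0.16 ± 0.12 (adjusted p = 0.314) and -0.16 with the block (adjusted p = 0.00855).

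Hoxb9, the last gene of the Hoxb run, differed between the replicate sets in all 8 groups. Without cytokine, Hoxb9 stood at 0.281, 0.742, 2.55 and 2.38 CPM with the control siRNA and at 0.489, 0.556, 2.56 and 1.77 CPM with the Dnmt1 siRNA. With TNF, Hoxb9 stood at 2.45, 1.64, 5.49 and 4.87 CPM with the control siRNA and at 0.823, 0.657, 1.75 and 1.75 CPM with the Dnmt1 siRNA. Replicates 3 and 4 were 2.09 to 5.13 times replicates 1 and 2 over the 8 groups, and si-control and si-dnmt overlapped in each state. With IFN, Hoxb9 stood at 0.840, 1.14, 2.62 and 2.05 CPM with the control siRNA and at 0.0555, 0.588, 1.98 and 1.33 CPM with the Dnmt1 siRNA. Under both cytokines, Hoxb9 stood at 1.73, 1.51, 6.65 and 5.71 CPM with the control siRNA and at 0.799, 0.959, 1.85 and 1.83 CPM with the Dnmt1 siRNA. Within a replicate number, si-dnmt was below si-control for 4 of 4 numbers in TNF, in IFN and under TNF + IFN, and for 2 of 4 without cytokine. No state was called, with log2 fold changes of -1.54 ± 0.67 (edgeR adjusted p = 0.108) in TNF and -1.50 ± 0.67 (edgeR adjusted p = 0.129) under TNF + IFN. Hoxb9 was -1.54 with the block (adjusted p = 7.2e-05) in TNF, -0.84 with the block (adjusted p = 0.0320) in IFN and -1.41 with the block (adjusted p = 3.1e-04) under TNF + IFN. In the mean over the states it was called at -0.97 ± 0.34 (edgeR adjusted p = 0.0182).

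**Figure D3:**
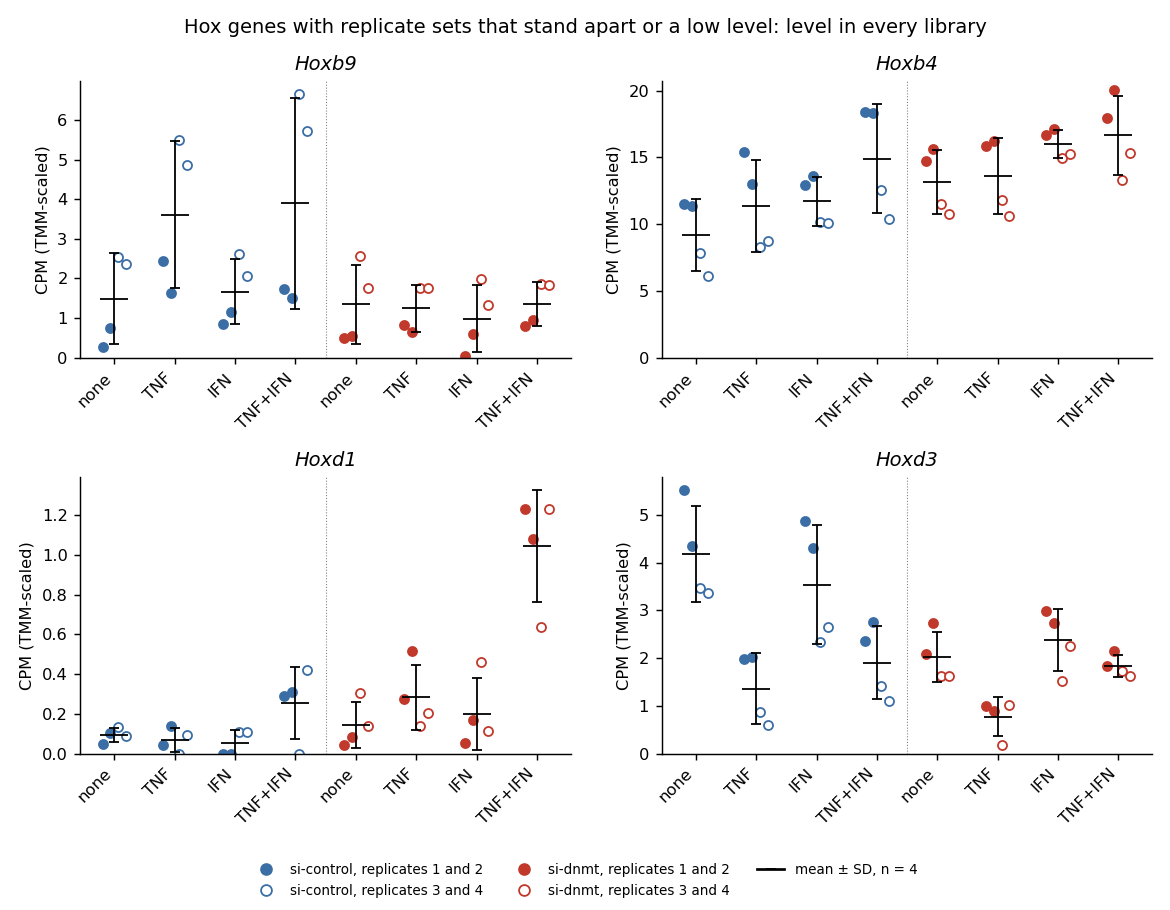
Each panel shows 1 Hox gene in TMM-scaled CPM (vertical axis) in every library by added cytokine (horizontal axis), blue for si-control and red for si-dnmt, filled points for replicates 1 and 2, open points for replicates 3 and 4, and black bars for the mean ± SD of 4. Hoxb9 has its open points above its filled points in all 8 groups and Hoxb4 below in all 8, while Hoxd1 stays under 0.6 CPM outside si-dnmt + TNF + IFN.

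Hoxd8, Hoxd9 and Hoxd10 lie next to each other in the middle of Hoxd and pattern limbs and spinal cord in the embryo. Without cytokine, Hoxd8 stood at 169, 173, 187 and 180 CPM with the control siRNA and at 95.03, 98.9, 65.6 and 72.0 CPM with the Dnmt1 siRNA. With TNF, Hoxd8 stood at 89.9, 90.8, 70.1 and 66.4 CPM with the control siRNA and at 47.2, 39.4, 29.2 and 31.96 CPM with the Dnmt1 siRNA. The gap between the groups was wide in both states. With IFN, Hoxd8 stood at 158, 152, 164 and 163 CPM with the control siRNA and at 94.8, 95.2, 69.4 and 73.6 CPM with the Dnmt1 siRNA. Under both cytokines, Hoxd8 stood at 71.8, 71.7, 73.0 and 76.2 CPM with the control siRNA and at 43.8, 49.2, 37.4 and 36.0 CPM with the Dnmt1 siRNA. In each state every si-dnmt library lay below every si-control library. Hoxd8 was 2.14 times lower without cytokine, with log2 fold changes of -1.10 ± 0.14 (edgeR adjusted p = 3.6e-06), -1.10 ± 0.14 (edgeR adjusted p = 3.3e-06), -0.93 ± 0.14 (edgeR adjusted p = 3.1e-05) and -0.82 ± 0.14 (edgeR adjusted p = 1.9e-04). Leaving out any single library of the groups compared kept these 4 calls, with log2 fold changes between -1.24 and -0.75.

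Next to it, Hoxd9 changed less. Without cytokine, Hoxd9 stood at 133, 135, 133 and 120 CPM with the control siRNA and at 103, 95.9, 74.0 and 74.2 CPM with the Dnmt1 siRNA. With TNF, Hoxd9 stood at 68.4, 67.1, 42.3 and 47.8 CPM with the control siRNA and at 43.6, 47.6, 35.4 and 34.6 CPM with the Dnmt1 siRNA. These groups were apart without cytokine, and with TNF they overlapped, with si-control + TNF replicates 3 and 4 near the highest si-dnmt + TNF libraries. With IFN, Hoxd9 stood at 101, 105, 96.4 and 104 CPM with the control siRNA and at 70.0, 78.9, 71.0 and 73.4 CPM with the Dnmt1 siRNA. Under both cytokines, Hoxd9 stood at 46.7, 42.7, 38.5 and 42.6 CPM with the control siRNA and at 28.4, 31.0, 32.7 and 32.4 CPM with the Dnmt1 siRNA. No library crossed in these 2 states. Hoxd9 log2 fold changes were -0.59 ± 0.13 (edgeR adjusted p = 0.00148), -0.49 ± 0.13 (edgeR adjusted p = 0.00747), -0.47 ± 0.13 (edgeR adjusted p = 0.00899) and -0.45 ± 0.13 (edgeR adjusted p = 0.0139), and each call held when any 1 library of its groups was left out. In a fit of the compared groups alone, the call with TNF was lost (edgeR adjusted p = 0.0850).

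Hoxd10, known for holding ECs in a quiescent state, fell about as much as Hoxd8. Without cytokine, Hoxd10 stood at 38.3, 41.8, 31.0 and 26.4 CPM with the control siRNA and at 18.9, 18.0, 14.3 and 14.4 CPM with the Dnmt1 siRNA. With TNF, Hoxd10 stood at 22.5, 23.7, 17.2 and 18.5 CPM with the control siRNA and at 13.7, 10.5, 9.91 and 9.09 CPM with the Dnmt1 siRNA. Si-dnmt was lower in all libraries of both states. With IFN, Hoxd10 stood at 17.4, 20.2, 20.4 and 20.2 CPM with the control siRNA and at 9.05, 10.9, 9.19 and 9.37 CPM with the Dnmt1 siRNA. Under both cytokines, Hoxd10 stood at 6.34, 8.43, 12.3 and 12.5 CPM with the control siRNA and at 5.10, 4.14, 5.37 and 6.02 CPM with the Dnmt1 siRNA. The gap was narrowest under TNF + IFN, where the groups still did not overlap. Hoxd10 log2 fold changes were -1.07 ± 0.18 (edgeR adjusted p = 8.1e-05), -0.92 ± 0.18 (edgeR adjusted p = 4.5e-04), -1.02 ± 0.18 (edgeR adjusted p = 1.5e-04) and -0.93 ± 0.19 (edgeR adjusted p = 7.0e-04), and these calls too held without any 1 library. Summed over the cluster, Hoxd RNA went from 347 ± 11.5 CPM in si-control to 189 ± 33.9 CPM in si-dnmt, and Hoxd8 made up 51.0% ± 2.85 of that sum in si-control and 43.7% ± 1.54 in si-dnmt.

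The 3' genes of Hoxd behaved in another way. Hoxd3, which drives ECs into an invasive state in angiogenesis, was lower in si-dnmt without cytokine. Without cytokine, Hoxd3 stood at 5.53, 4.34, 3.47 and 3.36 CPM with the control siRNA and at 2.09, 2.74, 1.64 and 1.63 CPM with the Dnmt1 siRNA. With TNF, Hoxd3 stood at 1.98, 2.01, 0.864 and 0.603 CPM with the control siRNA and at 1.01, 0.891, 0.184 and 1.03 CPM with the Dnmt1 siRNA. Groups were apart in the first case and overlapped in the second, where si-dnmt + TNF replicate 3 was far below its group. With IFN, Hoxd3 stood at 4.87, 4.31, 2.34 and 2.64 CPM with the control siRNA and at 3.00, 2.73, 1.52 and 2.25 CPM with the Dnmt1 siRNA. Under both cytokines, Hoxd3 stood at 2.35, 2.76, 1.42 and 1.11 CPM with the control siRNA and at 1.84, 2.16, 1.73 and 1.63 CPM with the Dnmt1 siRNA. Both of these states overlapped. Hoxd3 log2 fold changes were -1.05 ± 0.36 (edgeR adjusted p = 0.0430), -0.81 ± 0.41 (edgeR adjusted p = 0.171), -0.58 ± 0.36 (edgeR adjusted p = 0.281) and -0.06 ± 0.38 (edgeR adjusted p = 0.943). In TNF it was -0.79 with the block (adjusted p = 0.0314). The call without cytokine was lost without replicate 1 or 2 of si-control or replicate 1, 3 or 4 of si-dnmt (log2 fold change -1.06 to -0.88). Without cytokine Hoxd4 had 1.24 ± 0.518 CPM with the control siRNA and 1.04 ± 0.288 CPM with the Dnmt1 siRNA and was called in no state.

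Hoxd1 sits at the 3' end of its cluster, and it was nearly silent in every group but 1. Without cytokine, Hoxd1 stood at 0.0469, 0.106, 0.132 and 0.0896 CPM with the control siRNA and at 0.0445, 0.0855, 0.307 and 0.139 CPM with the Dnmt1 siRNA. With TNF, Hoxd1 stood at 0.0429, 0.141, 0 and 0.0928 CPM with the control siRNA and at 0.274, 0.516, 0.138 and 0.206 CPM with the Dnmt1 siRNA. These values rest on 8, 16, 6 and 24 counts per group of 4 libraries. With IFN, Hoxd1 stood at 0, 0, 0.109 and 0.108 CPM with the control siRNA and at 0.0555, 0.168, 0.460 and 0.115 CPM with the Dnmt1 siRNA. Under both cytokines, Hoxd1 stood at 0.288, 0.312, 0 and 0.423 CPM with the control siRNA and at 1.23, 1.08, 0.636 and 1.23 CPM with the Dnmt1 siRNA. The si-dnmt + TNF + IFN libraries, with 74 counts against 20 in si-control + TNF + IFN, were all above the other 28 libraries. Under TNF + IFN its log2 fold change was 1.97 ± 0.59 (edgeR adjusted p = 0.0203), a call lost without replicate 3 of si-control + TNF + IFN or replicate 4 of si-dnmt + TNF + IFN (log2 fold change 1.6 to 1.88). Hoxd1 passed the filter on low counts mainly through si-dnmt + TNF + IFN, so this call is partly fixed by the filter. From summed counts, Hoxd1 in si-dnmt was 1.74 times si-control without cytokine (95% exact interval 0.701 to 4.69), 4.45 times with TNF (1.77 to 13.3) and 3.82 times with IFN (1.27 to 15.5), where intervals cover counting error only. In these 3 states the fits across all genes gave adjusted p = 0.630, 0.0726 and 0.162.

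In the mean of the 4 states, 13 of the 20 tested genes were called, 3 higher and 10 lower in si-dnmt, beside 48.5% of all tested genes (24.4% higher and 24% lower). The rises on the log2 scale were those of Hoxd1 (1.59 ± 0.38), which was tested mainly through the group where it is high, Hoxb4 and Hoxa3. Largest falls were those of Hoxd8 (-0.99 ± 0.07), Hoxd10 (-0.99 ± 0.09) and Hoxb9 (-0.97 ± 0.34), followed by Hoxb8 (-0.72 ± 0.11), Hoxb6 (-0.67 ± 0.10), Hoxb3 (-0.63 ± 0.09), Hoxd3 (-0.63 ± 0.19) and Hoxd9 (-0.50 ± 0.06). By cluster, 7 of 8 tested Hoxb genes and 5 of 6 tested Hoxd genes were called, and 1 of 6 tested Hoxa genes.

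Some siRNA calls depended on the fit. When genes were not filtered on low counts, calls were lost for Hoxd3 without cytokine (edgeR adjusted p = 0.0721), Hoxa5 and Hoxb3 with TNF (0.182 and 0.119), Hoxb2 and Hoxb8 with IFN (0.0606 and 0.0532), Hoxd1 with TNF + IFN (0.0563) and Hoxa3 in the mean (0.121). In fits of the compared groups alone, calls were lost for Hoxa5, Hoxb3 and Hoxd9 with TNF (0.179, 0.0748 and 0.0850) and Hoxb5 with IFN (0.0976). In fits of replicates 1 and 2 alone, calls were lost for Hoxb8 without cytokine (edgeR adjusted p = 0.217), Hoxa5 and Hoxb3 with TNF (0.138 and 0.165), Hoxb2 and Hoxb3 with IFN (0.135 and 0.135) and Hoxa3 in the mean (0.126). In fits of replicates 3 and 4 alone they were lost for Hoxa5 with TNF (0.0927) and for Hoxa3 and Hoxd3 in the mean (0.176 and 0.155). DESeq2 kept all siRNA calls.

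How did the cytokines alone move these genes? TNF lowered genes of all 3 clusters with expressed members: Hoxd8 went from 177 ± 7.94 to 79.3 ± 12.9 CPM, Hoxa3 from 2.03 ± 0.448 to 0.671 ± 0.0815 CPM and Hoxb8 from 40.8 ± 7.01 to 21.9 ± 2.04 CPM in si-control ECs. With IFN, Hoxd10 was lower with either siRNA, and how many other genes were called depended on the replicate block. Under each siRNA, Hoxd9, Hoxd10 and Hoxa7 had their lowest group means with TNF + IFN. The 3 cytokine contrasts of 1 siRNA share their no-cytokine libraries, which also serve in the siRNA contrast without cytokine, so agreement among them is not counted as a result.

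**Figure D4:**
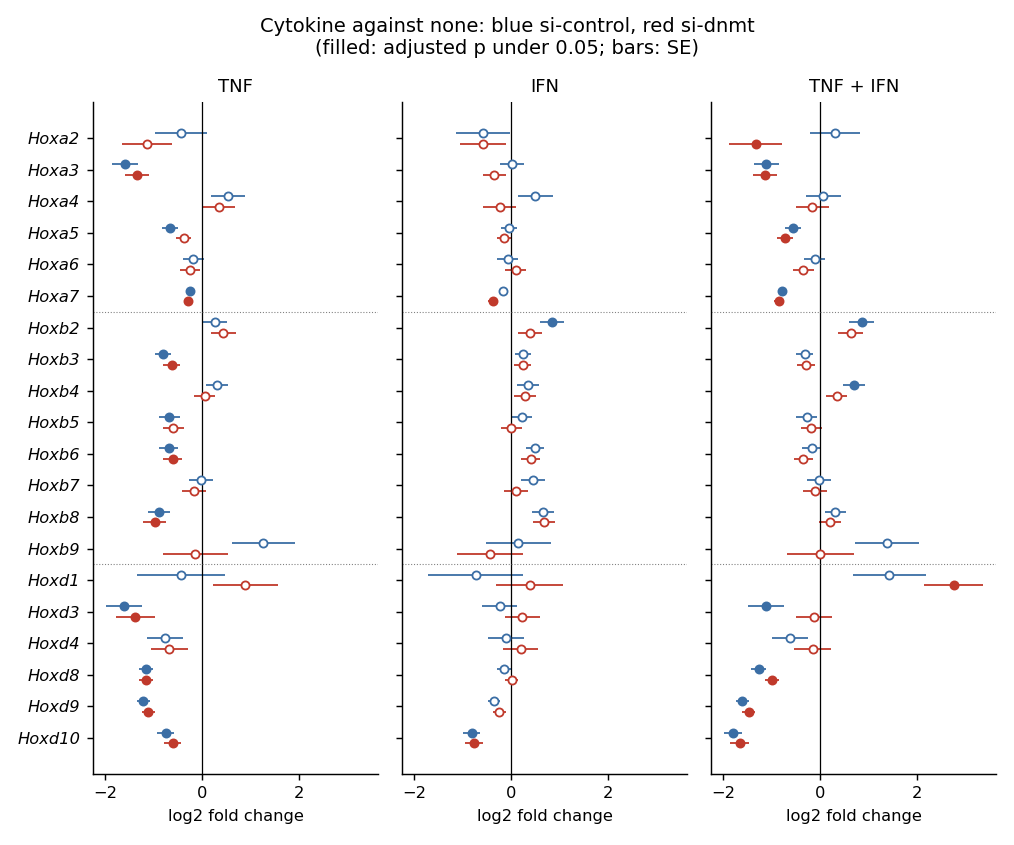
Points give the log2 fold change of each cytokine against no cytokine (horizontal axis) of the 20 tested Hox genes (vertical axis, in order along Hoxa, Hoxb and Hoxd, separated by dotted lines), blue in si-control and red in si-dnmt ECs, with SE bars and filled points where the edgeR adjusted p was under 0.05. Hoxd8, Hoxd9 and Hoxd10 lie left of zero with TNF and with TNF + IFN under both siRNAs, and Hoxb2 lies right of zero in every panel.

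In si-control ECs, TNF lowered 11 of the 20 tested genes and raised none, beside 30.7% of all tested genes called (16.1% higher and 14.6% lower). In si-dnmt ECs it lowered 9 and raised none, beside 21.1% (11.5% and 9.54%). With the block 13 and 11 genes were called with TNF, beside 43.4% and 34.3% of all genes, and 10 and 11 with TNF + IFN, beside 55% and 51.7%. Hoxa3 fell most among Hoxa genes, at -1.59 ± 0.26 (edgeR adjusted p = 3.1e-05) in si-control and -1.34 ± 0.25 (edgeR adjusted p = 2.5e-04) in si-dnmt. Hoxd3 fell as far, from 4.18 ± 1.01 to 1.36 ± 0.736 CPM (-1.61 ± 0.37, edgeR adjusted p = 0.00158), and in si-dnmt it was -1.37 ± 0.40 (adjusted p = 0.0139), a call lost without replicate 2 of si-dnmt or replicate 3 of si-dnmt + TNF (log2 fold change -1.20 to -1.04). Hoxd9 was -1.21 ± 0.13 (edgeR adjusted p = 3.8e-08) and -1.11 ± 0.13 (edgeR adjusted p = 3.2e-07). Hoxd8 was -1.16 ± 0.14 (edgeR adjusted p = 5.1e-07) and -1.17 ± 0.14 (edgeR adjusted p = 9.6e-07). Hoxd10 was -0.75 ± 0.17 (edgeR adjusted p = 0.00160) and -0.60 ± 0.18 (edgeR adjusted p = 0.0155), the latter lost without replicate 1 of si-dnmt or replicate 4 of si-dnmt + TNF (log2 fold change -0.53). All si-control + TNF libraries lay below all si-control libraries for these 5 genes.

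Hoxd4 was not called with TNF, but in si-dnmt it was called without replicate 1 of si-dnmt + TNF (log2 fold change -1.20). Within Hoxb, TNF lowered Hoxb3, Hoxb6 and Hoxb8 under both siRNAs and Hoxb5 in si-control, while Hoxb7 (32.2 ± 1.99 against 31.5 ± 8.64 CPM) was not called. Hoxb8 was -0.89 ± 0.23 (edgeR adjusted p = 0.00337) in si-control and -0.98 ± 0.23 (edgeR adjusted p = 0.00280) in si-dnmt. Hoxb3 was -0.81 ± 0.17 and -0.62 ± 0.18, the latter lost without replicate 2 of si-dnmt or replicate 3 of si-dnmt + TNF (log2 fold change -0.52 to -0.50). Hoxb6 was -0.69 ± 0.19 and -0.60 ± 0.20, the latter lost without replicate 1 or 2 of si-dnmt or replicate 3 or 4 of si-dnmt + TNF (log2 fold change -0.57 to -0.50). Hoxb5 was -0.67 ± 0.22 (edgeR adjusted p = 0.0181) in si-control, lost without replicate 3 of si-control + TNF (log2 fold change -0.59), and -0.59 ± 0.22 (edgeR adjusted p = 0.0534) in si-dnmt, where it became -0.57 with the block (adjusted p = 0.00594) and was also called without replicate 4 of si-dnmt (log2 fold change -0.69). Among Hoxa genes, Hoxa5 was -0.67 ± 0.16 (edgeR adjusted p = 0.00223) in si-control, and in si-dnmt it was -0.38 ± 0.16 (edgeR adjusted p = 0.0895) and -0.38 with the block (adjusted p = 0.0213). Hoxa7 fell slightly, from 21.8 ± 1.90 to 18.4 ± 1.42 CPM in si-control (-0.24 ± 0.09, edgeR adjusted p = 0.0477) and with a log2 fold change of -0.28 ± 0.09 in si-dnmt (adjusted p = 0.0302). These calls of Hoxa7 were lost without replicate 1 or 2 of si-control or replicate 2, 3 or 4 of si-control + TNF (log2 fold change -0.26 to -0.19), and in si-dnmt without replicate 1, 2 or 3 of si-dnmt or replicate 3 or 4 of si-dnmt + TNF (log2 fold change -0.28 to -0.22). Hoxb9 in si-control was 1.27 ± 0.66 (edgeR adjusted p = 0.148) and 1.41 with the block (adjusted p = 1.1e-04), and Hoxb4 was 0.30 ± 0.22 (adjusted p = 0.321) and 0.30 with the block (adjusted p = 0.0279).

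IFN alone gave 2 calls of 20 in si-control (1 higher and 1 lower), beside 14.5% of all tested genes (8.57% higher and 5.92% lower), and 2 of 20 in si-dnmt, both lower, beside 9.01% (6.66% and 2.35%). With the replicate block the counts were 7 and 5, beside 25.4% and 19% of all genes. Hoxd10 fell from 34.4 ± 6.97 to 19.6 ± 1.43 CPM in si-control (-0.81 ± 0.18, edgeR adjusted p = 0.00145) and from 16.4 ± 2.41 to 9.62 ± 0.846 CPM in si-dnmt (-0.77 ± 0.18, edgeR adjusted p = 0.00390). Hoxb2, a target of the hindbrain segment factors, rose in si-control from 2.04 ± 0.373 to 3.65 ± 0.628 CPM (0.84 ± 0.25, edgeR adjusted p = 0.0224), a call lost without replicate 2 or 4 of si-control or replicate 1 or 4 of si-control + IFN (log2 fold change 0.73 to 0.81). Its si-dnmt levels were 1.604 ± 0.252 and 2.10 ± 0.538 CPM. Hoxa7 fell in si-dnmt from 24.0 ± 1.62 to 18.4 ± 2.04 CPM (-0.38 ± 0.09, edgeR adjusted p = 0.00562). Hoxb8 went from 40.8 ± 7.01 to 64.0 ± 6.09 CPM in si-control without library overlap and narrowly missed the threshold (0.65 ± 0.22, edgeR adjusted p = 0.0503), which it crossed when fitted without replicate 3 of si-control or replicate 3 of si-control + IFN (log2 fold change 0.72 to 0.75). In si-dnmt it was 0.67 ± 0.23 (edgeR adjusted p = 0.0598), and it was called when fitted without replicate 1 of si-dnmt or replicate 3 of si-dnmt + IFN (log2 fold change 0.79 to 0.83). Hoxd9 in si-control was -0.36 ± 0.13 (edgeR adjusted p = 0.0548), and it was called when fitted without replicate 4 of si-control (log2 fold change -0.43).

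Of the IFN calls with the block, those not made without it were the following. In si-control + IFN, Hoxb8 was 0.62 with the block (adjusted p = 0.00434), Hoxb6 0.48 with the block (adjusted p = 0.00131), Hoxb7 0.40 with the block (adjusted p = 0.00477) and Hoxb4 0.37 with the block (adjusted p = 0.0139), all higher with IFN, and Hoxd9 was -0.36 with the block (adjusted p = 0.00873), lower. In si-dnmt + IFN, Hoxb8 was 0.66 with the block (adjusted p = 0.00375), Hoxb6 0.39 with the block (adjusted p = 0.0106) and Hoxb4 0.31 with the block (adjusted p = 0.0390). Summed over the cluster, Hoxb RNA went with IFN from 129 ± 7.43 to 182 ± 24.0 CPM under the control siRNA and from 102 ± 19.6 to 129 ± 32.1 CPM under the Dnmt1 siRNA.

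TNF + IFN gave 9 calls of 20 in si-control (2 higher and 7 lower), beside 45.2% of all tested genes (23.5% higher and 21.6% lower), and 8 in si-dnmt (1 higher and 7 lower), beside 40.2% (21.3% and 18.9%). Shares of called Hox genes were thus close to those of all genes. The higher call in si-dnmt (Hoxd1) and the lower call of Hoxa2 there are partly fixed by the filter on low counts. Hoxd10 fell from 34.4 ± 6.97 to 9.90 ± 3.03 CPM (-1.80 ± 0.18, edgeR adjusted p = 3.3e-09) and in si-dnmt to 5.16 ± 0.783 CPM (-1.67 ± 0.19, edgeR adjusted p = 2.8e-08). Hoxd9 fell from 130 ± 6.64 to 42.6 ± 3.34 CPM (-1.61 ± 0.13, edgeR adjusted p = 4.2e-11) and in si-dnmt to 31.1 ± 1.95 CPM (-1.48 ± 0.13, edgeR adjusted p = 3.1e-10). For Hoxd8 the log2 fold changes were -1.28 ± 0.14 and -0.99 ± 0.14. Hoxa7, little changed by TNF, fell to 12.6 ± 0.690 and 13.2 ± 1.37 CPM (-0.79 ± 0.09, edgeR adjusted p = 7.7e-08, and -0.86 ± 0.09, edgeR adjusted p = 1.9e-08). Hoxa3 was -1.11 ± 0.26 and -1.14 ± 0.25, and Hoxa5 -0.57 ± 0.16 and -0.74 ± 0.16, all called.

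Some genes moved under TNF + IFN with 1 siRNA only by call. Hoxd3 fell in si-control (-1.12 ± 0.37, edgeR adjusted p = 0.0143), a call lost without replicate 1 of si-control or replicate 4 of si-control + TNF + IFN (log2 fold change -0.95 to -0.93), and in si-dnmt it had 2.02 ± 0.521 and 1.84 ± 0.229 CPM. Hoxb2 rose in si-control to 3.68 ± 0.529 CPM (0.85 ± 0.25, edgeR adjusted p = 0.00672), and in si-dnmt it was 0.62 ± 0.26 (edgeR adjusted p = 0.0534), 0.64 with the block (adjusted p = 0.0330) and called without replicate 1 or 4 of si-dnmt + TNF + IFN (log2 fold change 0.74 to 0.75). Hoxb4 rose in si-control from 9.21 ± 2.70 to 14.9 ± 4.08 CPM with overlapping libraries (0.70 ± 0.22, edgeR adjusted p = 0.0111), lost without replicate 4 of si-control (log2 fold change 0.53). In si-dnmt Hoxb4 was 0.34 ± 0.22 (adjusted p = 0.224) and 0.35 with the block (adjusted p = 0.00791), and Hoxb6 was -0.35 ± 0.20 (adjusted p = 0.167) and -0.34 with the block (adjusted p = 0.0127). Hoxd1 rose in si-dnmt from 0.144 ± 0.115 to 1.04 ± 0.282 CPM (2.75 ± 0.61, edgeR adjusted p = 5.8e-04), and in si-control it had 0.0936 ± 0.0356 and 0.256 ± 0.180 CPM (adjusted p = 0.132), a difference called without replicate 3 of si-control + TNF + IFN (log2 fold change 1.80). Since Hoxd1 was tested mainly through si-dnmt + TNF + IFN, its rise in si-dnmt is partly fixed by the filter on low counts. Hoxa2 fell in si-dnmt from 0.556 ± 0.131 to 0.220 ± 0.164 CPM (-1.34 ± 0.54, edgeR adjusted p = 0.0489), on 57 and 15 counts, a call lost without replicate 1, 2 or 4 of si-dnmt or replicate 1, 2 or 4 of si-dnmt + TNF + IFN (log2 fold change -1.54 to -0.98). Hoxa2 passed the filter on low counts through 6 libraries, of which 3 were si-dnmt, so this fall is partly fixed by the filter. In si-control Hoxb9 was 1.37 ± 0.66 (edgeR adjusted p = 0.0930) and 1.40 with the block (adjusted p = 6.5e-05). Among the cytokine calls, fits of the compared groups alone lost Hoxa5 with TNF in si-control (edgeR adjusted p = 0.0671), Hoxa7 with TNF under either siRNA (0.157 and 0.0750), and under TNF + IFN Hoxb4 in si-control (0.0598) and Hoxa2 in si-dnmt (0.0655). Without the filter, Hoxa7 with TNF (0.257 and 0.140), Hoxa7 with IFN in si-dnmt (0.0502) and Hoxa2 (0.112) were lost. Replicates 1 and 2 alone lost Hoxa7 with TNF and with IFN in si-dnmt (0.305 and 0.0870) and Hoxa2 (0.0723). Replicates 3 and 4 alone lost in si-control Hoxa7 with TNF (0.461), Hoxb2 with IFN (0.0645) and Hoxa3 and Hoxa5 with TNF + IFN (0.113 and 0.274), and in si-dnmt Hoxb3 with TNF (0.0528) and Hoxa2 (0.218). RLE factors lost only Hoxa7 with TNF in si-control (0.0559).

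Endothelial markers moved in the same comparisons as the falls with TNF. Of 14 endothelial markers, 5 were called lower with TNF in si-control and 7 in si-dnmt, and 11 under each siRNA with TNF + IFN, with none called higher. Beside them, 14.6% and 9.54% of all tested genes were called lower with TNF in si-control and si-dnmt, and 21.6% and 18.9% with TNF + IFN. Shares called higher were 16.1% and 11.5% with TNF, and 23.5% and 21.3% with TNF + IFN. Their summed level was 7109 to 10621 CPM in si-control libraries and 4460 to 6295 CPM in si-control + TNF + IFN, and 6636 to 9814 against 3959 to 5936 CPM in si-dnmt. Their part in the Hox falls was not tested, and fewer cells of a type and less RNA per cell cannot be told apart in bulk RNA.

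Whether the siRNA changed the answer to a cytokine was tested with interaction terms. No Hox gene was called by edgeR for TNF, IFN or TNF + IFN, beside 0.0328% (0.00656% higher and 0.0262% lower), 0.0459% (0% and 0.0459%) and 0.525% (0.157% and 0.367%) of all tested genes, and DESeq2 called none either. At an unadjusted p under 0.05 there were 0, 0 and 1 genes, the last being Hoxa2 (log2 -1.64 ± 0.74, edgeR adjusted p = 0.50), whose differences are partly fixed by the filter on low counts. So calls made with 1 siRNA and not with the other, such as those of Hoxd3, Hoxb4 and Hoxd1, are not shown to differ between the siRNAs. In numbers, the interaction with TNF + IFN was 1.33 ± 1.05 for Hoxd1 (edgeR adjusted p = 0.810), 0.99 ± 0.53 for Hoxd3 (edgeR adjusted p = 0.603) and 0.28 ± 0.20 for Hoxd8 (edgeR adjusted p = 0.772). Added up over the 38 genes, Hox RNA went from 507 ± 17.2 to 327 ± 54.7 CPM between the siRNAs without cytokine, and stood at 289.8 ± 29.0 and 204 ± 26.2 CPM under TNF + IFN.

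Transcripts and proteins around the clusters were counted from lists of known genes. The list counts stand beside 18.5%, 20%, 20.3% and 17.7% of all tested genes called in the 4 siRNA contrasts, and 48.5% in their mean. Of the antisense and noncoding RNAs of the Hox clusters, 8 of the 19 in the table were tested, and in the 4 siRNA contrasts 0 or 1 was called (median log2 -0.34, -0.02, -0.14 and 0.27, beside the all-gene medians given above, here and for the lists that follow). In the mean of the states 1 was called higher and 2 lower: Hotairm1, a noncoding RNA of the Hoxa cluster, went up (0.66 ± 0.19, edgeR adjusted p = 0.00602), Hoxb5os was -0.64 ± 0.17 (adjusted p = 0.00201) and Hoxd3os1 -0.31 ± 0.08 (adjusted p = 0.00262). Without cytokine Hotairm1 had 0.719 CPM with the control siRNA and 0.955 CPM with the Dnmt1 siRNA. Of 20 tested genes that flank the clusters, 5 (2 higher and 3 lower), 2 (1 and 1), 4 (2 and 2) and 1 (higher) were called in the 4 states (medians -0.10, -0.04, -0.07 and -0.05), and in the mean Jazf1 beside Hoxa was 0.69 ± 0.12, Smug1 beside Hoxc 0.52 ± 0.06 and Cbx1 beside Hoxb -0.49 ± 0.06.

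Among 9 tested TALE genes, 3 (2 higher and 1 lower), 4 (2 and 2), 2 (both higher) and 3 (2 and 1) were called (medians 0.04, 0.08, -0.17 and -0.29). For this list and those that follow, the shares of all tested genes called in the 4 states were 18.5%, 20%, 20.3% and 17.7%. Meis3, a MEIS cofactor, was higher in all 4 states (mean 1.59 ± 0.20, 0.385 CPM with the control siRNA and 1.09 CPM with the Dnmt1 siRNA, without cytokine, as for the CPM pairs that follow), and so was Pbxip1, which holds PBX proteins back from DNA (0.55 ± 0.04, 118 and 164 CPM). Group means of Meis3 were 0.245 to 0.446 CPM with the control siRNA and 0.944 to 1.38 CPM with the Dnmt1 siRNA. Meis3 therefore passed the filter on low counts mainly through si-dnmt libraries, and its difference is partly fixed by the filter. Of 32 tested Polycomb genes 8 (3 higher and 5 lower), 6 (2 and 4), 5 (2 and 3) and 5 (2 and 3) were called (medians -0.06, -0.07, -0.03 and -0.02), Yaf2 being lower in all 4 states (-0.75 ± 0.04, 32.6 and 18.8 CPM) and Pcgf3 higher (0.48 ± 0.05, 116 and 156 CPM). Of 16 tested Trithorax genes and H3K27 demethylases 1 (higher), 4 (1 higher and 3 lower), 3 (1 and 2) and 4 (all lower) were called (medians -0.03, -0.06, -0.05 and -0.15). In the mean of the states 3 were called higher and 5 lower, beside 48.5% of all genes. Those higher were the MLL methyltransferase genes Kmt2d (0.24 ± 0.06), Kmt2b (0.21 ± 0.04) and Kmt2a (0.19 ± 0.05), and those lower were Psip1 (-0.43 ± 0.07), Mllt3 (-0.43 ± 0.07), Men1 (-0.25 ± 0.09), Wdr5 (-0.18 ± 0.04) and Mllt1 (-0.14 ± 0.06), of which Men1, Psip1 and Wdr5 encode partners of MLL proteins. The Kmt2 genes, Wdr5 and Mllt1 were named after their values were seen, to give both directions. Of 16 Hox-linked EC genes, 6 (4 higher and 2 lower), 6 (3 and 3), 6 (5 and 1) and 5 (3 and 2) were called (medians 0.10, 0.22, 0.20 and 0.12). In the mean 8 were higher and 4 lower, beside 24.4% and 24% of all genes. The largest rises were those of Sele (0.94 ± 0.12), Vcam1 (0.75 ± 0.05) and Plaur (0.65 ± 0.09), and Kdr rose as well (0.42 ± 0.07). The largest fall was that of Efna1 (-0.76 ± 0.17). These genes were named after their values were seen, to give both directions. Nos3, the endothelial nitric oxide synthase, was lower in all 4 states (-0.54 ± 0.06, 247 and 179 CPM).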

How the data were processed

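Bulk RNA-seq of 32 libraries (8 groups of 4) was analysed. Per the labels, the authors trimmed reads with cutadapt 4.9, checked them with FastQC 0.12.1 and MultiQC 1.27.1 and counted them with featureCounts; for the aligner, genome build, annotation and strand setting nothing is stated in the sources used here. The deposited values are raw counts per gene, merged by symbol (the merged table equals the sum of the per-library tables, and 203 identifiers share a symbol). Tests used edgeR 4.0.16 (limma 3.58.1, R 4.3.3): TMM factors (0.880 to 1.09), genes kept by filterByExpr with a minimum count of 10 (15250 of 54429), 1 quasi-likelihood fit of 8 group means over all libraries, and Benjamini-Hochberg adjustment over all kept genes, called at an adjusted p under 0.05, with SEs of log2 fold changes taken from the F statistic. The procedure was run on simulated counts with the same dispersion (spread between replicates) for all genes and no difference between replicate sets. These libraries do show such a difference, so the simulation does not test the fit under it. Alternatives were RLE factors, no filter, DESeq2 1.42.0, the compared groups alone, a replicate block, either replicate set, each library left out and, chosen after seeing the data, the tables by identifier. Same-numbered libraries deviated together in 112 of 112 pairs of libraries from different groups (correlation 0.297 to 0.618 across genes, and highest with the own number in 70), while the labels say no more of the numbers. Values in every library are given for the up to 10 genes with the largest mean siRNA change among those called in that mean or in 2 states, group means for the rest, up to 6 genes by cytokine change, and up to 3 genes of each list called in all 4 states or else in the mean. The rule finds 1 further gene that is not reported here. Members and lists were chosen with earlier results of these data known.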

Additional observations from a re-analysis of the deposited data

Results flagged for a closer look

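In 8 of 152 groups of 4 libraries (19 expressed genes in 8 groups), 1 library lay far from the other 3 by Dixon's test, which chance does in about 1 of 20 groups. Hoxa4 replicate 4 of si-dnmt + TNF was at 1.54 CPM, with the others at 1.15 to 1.19 CPM. Hoxa4 replicate 3 of si-dnmt + TNF + IFN was at 1.62 CPM against 0.553 to 0.691 CPM. Hoxb2 replicate 3 of si-dnmt was at 1.23 CPM against 1.70 to 1.75 CPM. Hoxb8 replicate 3 of si-control + IFN was at 54.9 CPM against 66.1 to 67.7 CPM. Hoxd3 replicate 3 of si-dnmt + TNF was at 0.184 CPM against 0.891 to 1.03 CPM. Hoxd4 replicate 1 of si-control + IFN was at 1.96 CPM against 0.810 to 0.936 CPM. Hoxd9 replicate 4 of si-control was at 120 CPM against 133 to 135 CPM. Hoxd10 replicate 1 of si-control + IFN was at 17.4 CPM against 20.2 to 20.4 CPM.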

How the results depend on the processing

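The number of expressed genes, 19 of 38, stayed within 1.5 times this count at 0.5 or 2 CPM, by library totals and by group medians. With IFN, the counts of called genes went in si-control from 2 (14.5% of all genes) to 4 (DESeq2, only the groups compared and replicates 3 and 4 alone, with 16.1%, 9.18% and 21.8%), 6 (replicates 1 and 2 alone, 25.5%) and 7 (replicate block, 25.4%), and in si-dnmt from 2 (9.01%) to 1 (no filter, 3.23%), 4 (replicates 1 and 2 or 3 and 4 alone, 19.5% and 16%) and 5 (replicate block, 19%). Interactions gave 2 calls for TNF and 3 for TNF + IFN in replicates 3 and 4 alone, beside 7.99% and 11.8% of all genes, and 0 otherwise. Leaving out 1 library gave for the siRNA 4 to 7 calls without cytokine (4 without replicate 3 or 4 of si-dnmt), 3 to 6 with TNF (3 without replicate 4 of si-dnmt + TNF), 5 to 8 with IFN (5 without replicate 1 of si-control + IFN or 3 or 4 of si-dnmt + IFN) and 5 to 7 with TNF + IFN, 1 to 3 for IFN in si-control, 2 to 3 for IFN in si-dnmt and 5 to 10 for TNF in si-dnmt. The replicate block (the labels number the replicates alike) lost none of the calls and added those given in the text, while 9 reported calls were lost in replicates 1 and 2 alone and 9 in replicates 3 and 4 alone. Directions reversed for values that were not called: Hoxb9 without cytokine was 0.066 in replicates 1 and 2 alone and -0.64 to 0.26 leaving out 1 library, Hoxd1 without cytokine -0.17 in replicates 1 and 2 alone and -0.017 to 0.91 leaving out 1, and Hoxd3 with TNF + IFN 0.0012 with the replicate block, 0.42 in replicates 3 and 4 alone and -0.25 to 0.17 leaving out 1. The cause was not tested. Fits by identifier kept all 96 reported calls and values on their side of the threshold. Depth limits Hoxd1, Hoxa2 and the silent genes, whose groups hold few counts.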

Other observations

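Hoxa9, which in ECs is known to act on Nos3 and Kdr, was silent by the rule and was not tested, but its few counts were unevenly spread. It had 2 counts in the 4 si-control libraries and 24 in the 4 si-dnmt libraries, a ratio of 10.4 (95% exact interval 2.59 to 91.0, counting error only). With TNF it had 12 and 24 counts (ratio 2.22, 1.07 to 4.88). With IFN it had 0 and 7, at least 1.88-fold higher against a floor of 3 counts over the group, and with TNF + IFN 7 and 8 (1.28, 0.407 to 4.16). Its highest group mean was 0.285 CPM.

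Of 18 genes of retinoic acid metabolism and signalling, a pathway that sets Hox expression in the embryo, 10 were tested and 2 (1 higher and 1 lower), 2 (1 and 1), 1 (higher) and 1 (higher) were called in the 4 siRNA contrasts (medians 0.07, 0.17, 0.01 and 0.16). Beside this list and the next, 18.5%, 20%, 20.3% and 17.7% of all tested genes were called. Aldh1a1, which makes retinoic acid, was higher in all 4 states (mean log2 2.08 ± 0.30, edgeR adjusted p = 1.9e-06), with a mean without cytokine of 2.0 CPM with the control siRNA and of 8.08 CPM with the Dnmt1 siRNA. Of 42 ParaHox and other regional homeobox genes, 11 were tested and 4 (2 higher and 2 lower), 3 (2 and 1), 1 (higher) and 1 (higher) were called (medians -0.27, -0.33, -0.31 and -0.06). Lhx2, a LIM homeobox gene, was at 0 in the si-control and si-control + IFN libraries and at 0.219 CPM in si-control + TNF + IFN, and it reached 3.59 CPM in si-dnmt + TNF + IFN. Its next highest group mean was 0.530 CPM in si-dnmt + TNF. Lhx2 is among the genes called higher in all 4 states, but it passed the filter on low counts mainly through si-dnmt + TNF + IFN. Its calls are therefore partly fixed by the filter, and its zeros carry the depth limit given above. These results were chosen by the same rule as the genes above.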
